A study of Mus musculus with 22 samples.

Results

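Caudal spinal cord, the part below T6, was examined 48 h after the aorta of wild-type C57Bl/6 mice had been clamped for 7.5 min, and was compared with caudal cord of wild-type C57Bl/6 mice that had a sham operation. The 7 arrays were chosen by the region, treatment and time in their labels: 4 clamped arrays, numbered 271 to 274 in their titles, and 3 sham arrays, numbered 278 to 280. The whole series has 22 arrays. Regional differences were tested against rostral cord (above T6) of the same strain, with 4 arrays 48 h after the same clamping and 4 sham arrays, and the caudal and rostral 24 h arrays entered only the shared estimate of the spread. All mice were 10 to 12 weeks old. The labels do not give the time between the sham operation and tissue collection, and do not state whether each array is from an animal of its own. The p-values and standard errors therefore measure only a spread among arrays, pooled over the 6 groups of the series, part of which may be technical. Values are log2 signals, on which a difference of 1 is a 2-fold change, and the number of arrays limits their precision. Changes are clamped minus sham, with standard errors (SE), and a gene was called when its limma p, adjusted by Benjamini-Hochberg over 18193 genes, was under 0.05.

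Clamping the aorta stops the blood supply of the lower spinal cord, and releasing the clamp returns it. The cord holds neurons, myelinating oligodendrocytes and their precursors, astrocytes, microglia, vessels that form the blood-brain barrier, and a ciliated ependymal lining of the central canal. Ischaemia and reflow can injure each of these, and motor neurons of the lower cord are known to be sensitive. Inflammatory signals from injured tissue act on astrocytes, microglia and endothelium and draw blood leukocytes.

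The region labels of these 7 arrays were checked with Hoxc10, a transcription factor gene of the posterior body, chosen after its values were seen. Its log2 signal was 9.19, 9.64, 10.08 and 10.19 on clamped arrays 271 to 274, against 10.21, 10.16 and 10.48 on sham arrays 278 to 280. The same gene was at 5.67 on the array labelled caudal 24 h 283, which goes against its label and enters only the pooled spread. Without both arrays numbered 283 the genes called between clamped and sham caudal cord, counted below, became 832 higher and 805 lower, and 21 of the 170 called genes named here were no longer called, among them Olig2, Nat8l, Gjb1, Tmem212, Nefl, Chodl, Kcnj10, Gyg and Ndufv1.

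Array 271 stood apart from the others. The standard deviation over its probe sets was 2.05, against 2.21 or more on each of the others, and its correlation with another array was 0.912 in the median. On array 271 genes in the lowest of 4 equal bins by sham level lay 0.51 above the sham mean in the median, and genes of the highest bin lay at −0.61. On arrays 272, 273 and 274 the highest bin lay at −0.18, −0.12 and −0.02, and the lowest bin at 0.0049, 0.04 and 0.06. The signals of this array were thus drawn towards the middle of the scale, and changes it moved by over 1.5 times, or calls that ended without it, are marked below. The 5-prime signal of the Gapdh control lay 1.05 below the 3-prime signal in log2 units (−1.05) on clamped array 274 and at −0.68 on sham array 280.

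**Figure D1:**
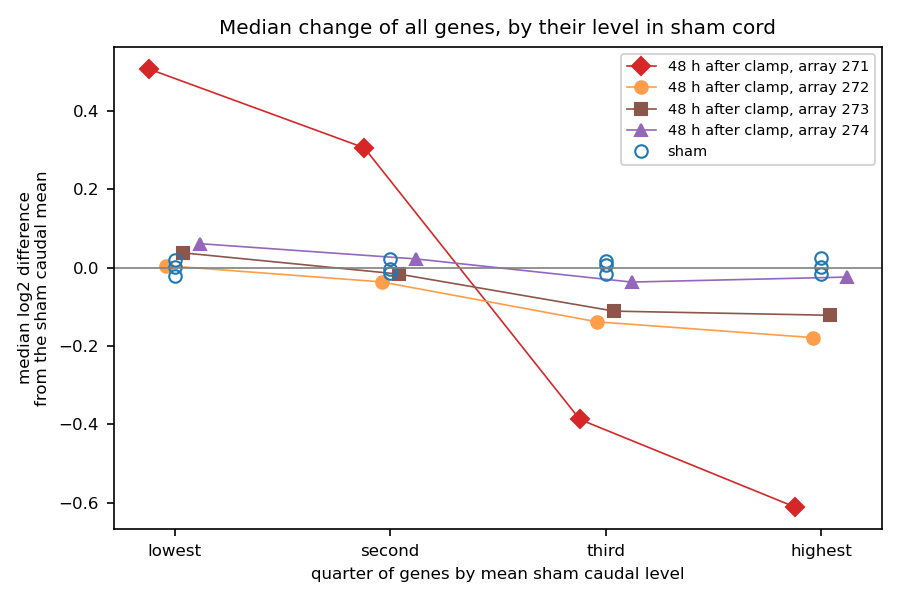
Median log2 difference from the mean of the 3 sham caudal arrays, on the vertical axis, for genes split into 4 equal bins by their mean sham level, on the horizontal axis. Each clamped array has its own marker and joining line, and open circles are the 3 sham arrays; array 271 lies at 0.51 in the lowest bin and −0.61 in the highest, while the other 3 clamped arrays stay between −0.18 and 0.06.

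In all, 2279 genes were called (12.5% of those tested), 1004 higher (5.52%) and 1275 lower (7.01%) in clamped cord. Counts in the gene lists below are to be read beside these shares, which also depended on sham level. In the lowest bin 17 of 4549 genes were called lower, against 498 of 4548 in the third and 462 of 4548 in the highest. Among called genes with separate groups, named by rule, the cytokine gene Il6 had the largest rise outside the chemokine ligands (7.14). Gpr17, a receptor gene of oligodendrocyte precursors, had the largest fall among them (−1.66). At least a 2-fold change was found for 468 of the higher and 75 of the lower genes. For 1889 of the called genes (10.4% of those tested) the 4 clamped arrays did not overlap the 3 sham arrays. Called or not, this held for 3635 genes (19.98% of those tested). The median log2 change of all genes was 0.0044, and −0.038 without array 271. Without array 271 the counts were 1135 higher (6.24%) and 1612 lower (8.86%), 1972 of the 2279 genes were called in both fits, and 2279 kept their sign. Where the groups did not overlap, leaving out an array could not reverse the sign. Leaving out array 273 or 274 gave 3665 or 5734 called genes, and leaving out sham array 278, 279 or 280 gave 801, 983 or 1048. Of the 170 called genes named here, 72, 57 and 57 were not called without sham arrays 278, 279 and 280.

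The falls rested more than the rises on the spread pooled over the 6 groups of the series. The median SD of a gene was 0.343 among the 4 clamped arrays (0.159 without array 271), against 0.0985 among the 3 sham arrays. It was 0.0885 to 0.105 in the other groups. The SEs given with the changes use the pooled spread, so where the clamped arrays spread more, the SEs understate it. A limma fit of these 7 arrays alone called 140 genes higher (0.77%) and 2 lower (0.011%), which were Slc40a1 and Acvr1c, an activin receptor gene named after its values were seen (−1.05, with 1 of 3 probe sets of opposite sign), while 926 lower genes had an unadjusted p under 0.05. The same fit without array 271, an alternative chosen after seeing the data, called 296 higher (1.63%) and 49 lower (0.269%). Of the called members of the gene lists described below, the fit of the 7 arrays alone called 41 of 138 that rose and 1 of 132 that fell, and without array 271 it called 57 and 10. The distance from sham also differed among the clamped arrays. The relation of this difference to the narrowed signals of array 271 and to the Gapdh control of array 274 was not tested. Over the 1004 higher genes the median distance from the sham mean was 1.37, 1.11, 0.82 and 0.50 on arrays 271 to 274, and array 274 was the nearest to sham for 68.4% of them. Over the 1275 lower genes it was −1.03, −0.57, −0.40 and −0.26, with array 271 the farthest for 78.8% of them.

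Among oligodendrocyte precursor genes, Gpr17 was 1 of the 30 largest falls, and the others changed less. Gpr17, a receptor of precursors that are about to differentiate, had log2 signals of 7.07, 7.15, 8.01 and 8.23 on clamped arrays 271 to 274, against 9.22, 9.45 and 9.15 on sham arrays 278 to 280. Every clamped array lay below every sham array, and Gpr17 had the largest fall of the genes so separated and named by rule (−1.66 ± 0.28, limma adjusted p = 0.000994, and −1.47 without array 271). It was also called in the fit of the 6 remaining arrays alone, but not in the fit of the 7 arrays alone (limma adjusted p = 0.058). In whole tissue, fewer cells of a type and less RNA per cell cannot be told apart. Bmp4, a growth factor made by early differentiating cells, was at 6.54, 7.06, 7.11 and 7.16 on clamped arrays and at 7.55, 7.87 and 7.87 on sham arrays (−0.79 ± 0.15). Cspg4, the NG2 proteoglycan of precursors, fell by 0.48, and Olig2, the transcription factor of the lineage, had a change of −0.95 whose call ended without array 271. Olig2 on array 274 was 9.09, level with the 9.08 to 9.11 of sham, so the groups overlapped. In all, 4 of 11 measured precursor genes fell and 0 rose, with a list median of −0.55 (−0.40 without array 271); all 11 had negative values, between −1.66 and −0.02.

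Myelin genes of mature oligodendrocytes moved less. Of 14 measured, 2 fell and 1 rose, with a median of −0.20 (−0.13 without array 271). Aspa, the enzyme that splits N-acetylaspartate to feed myelin lipid synthesis, was at 9.34, 8.50, 9.72 and 10.20 on clamped arrays, against 10.70, 10.77 and 10.48 on sham arrays (−1.21 ± 0.28, limma adjusted p = 0.0108). Nat8l, which makes N-acetylaspartate in neurons, fell by 0.98 (by 0.51 without array 271). Ugt8a, which makes the galactolipid of myelin, fell by 0.95. The gap junction gene Gjb1 went the other way, with 11.87 on array 271 and 9.76 to 10.78 on the other clamped arrays, against 9.57 to 9.66 in sham (1.01 ± 0.31, and 0.60 without array 271).

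Barrier transporters of brain and cord endothelium fell in 6 of 16 measured genes, and none rose (median −0.41, and −0.20 without array 271). Slco1c1, which carries thyroid hormone across the barrier, was at 8.16, 7.82, 8.38 and 9.49 on clamped arrays and at 9.99, 10.02 and 9.79 on sham arrays (−1.47 ± 0.31, limma adjusted p = 0.005). Slco1a4, an organic anion carrier, was at 8.67, 9.44, 9.11 and 9.26 on clamped arrays and at 10.32, 10.20 and 9.88 on sham arrays (−1.01 ± 0.20). For both genes the groups were separate. Abcb1a, the drug efflux pump P-glycoprotein, fell by 1.05, and the organic anion transporter gene Slc22a8 fell by 0.96. The amino acid carrier Slc38a5 had the most negative value of the list (−1.76 ± 0.43), but array 274 at 8.24 lay above sham array 279 at 8.16. Itm2a, a membrane protein gene of barrier vessels, fell by 1.23.

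Genes of endothelial identity and junctions gave a similar count, with 5 of 16 measured lower and 0 higher (median −0.24). Without array 271, 5 were lower and 1 higher, with a median of −0.11. In the fit with all arrays 5 of the 16 had positive values. Tek, the angiopoietin receptor, was at 5.51, 6.70, 6.06 and 7.38 on clamped arrays, against 7.96, 7.95 and 7.93 on sham arrays (−1.53 ± 0.30, limma adjusted p = 0.00349). Sox17, a transcription factor of arterial endothelium, had a narrower range, with 7.22, 7.10, 6.76 and 7.09 on clamped arrays and 7.72, 7.93 and 7.66 on sham arrays (−0.73 ± 0.14). Cldn5, the main tight junction claudin, was within 9.47 to 9.60 on clamped arrays and 10.06 to 10.23 on sham arrays (−0.61 ± 0.16), and its change without array 271 was −0.62. Sox17, Cldn5 and Slco1a4 were called in the fit of the 6 remaining arrays alone. They were not called in the fit of the 7 arrays alone (limma adjusted p = 0.123, 0.108 and 0.0987). Cdh5, the endothelial cadherin, was not called (0.62 ± 0.23, limma adjusted p = 0.0793). Of 12 mural cell and fibroblast genes, 2 fell, the collagen gene Col1a1 (−1.23) and the pericyte receptor gene Notch3 (−0.82).

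Ependymal and ciliated cell genes had a more negative median without array 271. Of 13 measured, 6 fell and 0 rose (median −0.30); without array 271, 7 fell and the median was −0.48. Foxj1, the transcription factor that sets up motile cilia, was at 7.36, 7.03, 7.26 and 7.84 on clamped arrays, against 8.07, 7.85 and 7.9997 on sham arrays (−0.60 ± 0.14, limma adjusted p = 0.0106). The groups were separate, but arrays 274 and 279 nearly met. Rsph4a, a radial spoke protein of cilia, was at 4.95, 4.64, 4.80 and 5.29 on clamped arrays and at 5.74, 5.69 and 5.71 on sham arrays (−0.79 ± 0.15). Falls were also called for Dynlrb2, a dynein light chain (−0.95), Ak7, an adenylate kinase of cilia (−0.61), Ccdc153 (−1.13) and Tmem212 (−0.78). Rsph4a, Dynlrb2, Ak7, Ccdc153, Foxj1 and Tmem212 had changes between −0.58 and −0.08 in rostral cord, and none of these 6 was called there or in the test of the difference between regions.

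**Figure D2:**
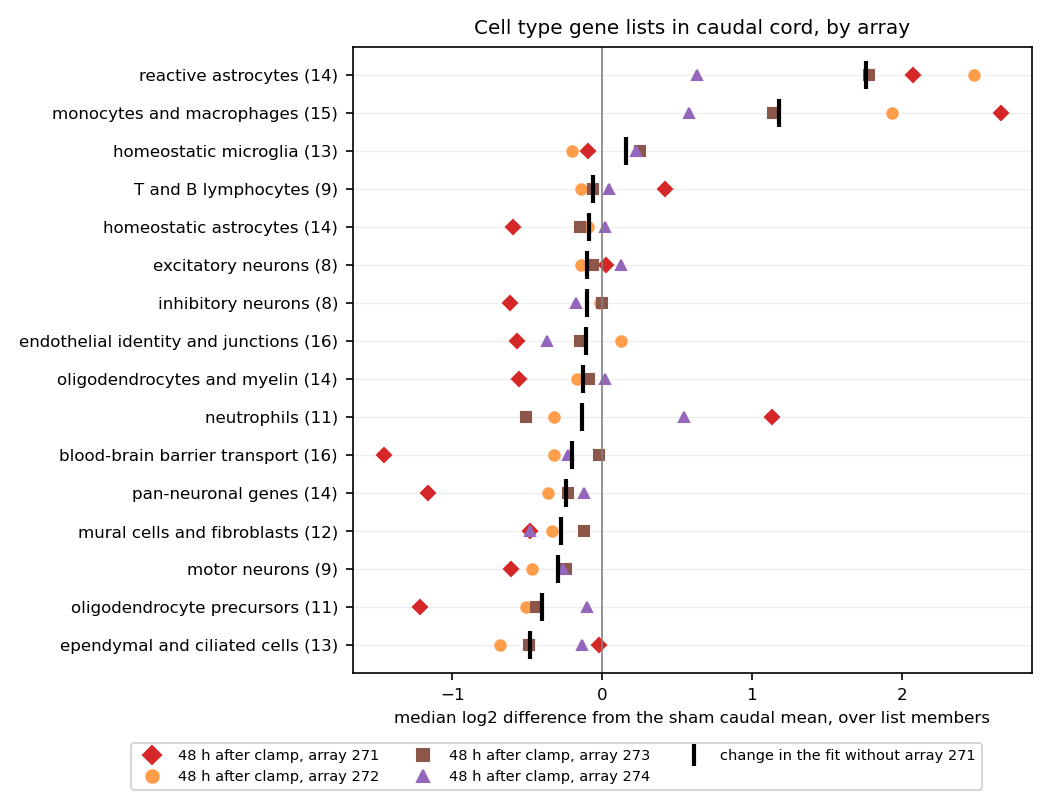
Median log2 difference from the sham caudal mean over the measured members of each cell type list, whose number is in brackets, for each clamped array. The black bar is the list's median change in the fit without array 271. It is 1.76 for reactive astrocytes at the top and −0.48 for ependymal genes at the bottom. Array 271 lies far left of the other arrays for barrier, pan-neuronal and precursor genes.

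Neuronal genes had small changes once array 271 was left out. Of 14 pan-neuronal genes, 3 fell and 0 rose, with a median of −0.45 (−0.24 without array 271, where 5 fell). The median distance of these genes from sham was −1.16 on array 271 and −0.36, −0.23 and −0.12 on arrays 272 to 274. Elavl4, a neuronal RNA-binding protein, was at 10.03, 9.57, 9.79 and 10.24 on clamped arrays and at 10.39, 10.51 and 10.37 on sham arrays (−0.51 ± 0.14, and −0.55 without array 271). Nefl, the light neurofilament, fell by 0.31 (−0.19 without array 271), and Map2, a dendritic microtubule protein with 1 of 4 probe sets of opposite sign, had a change of −0.40 whose call ended without array 271. Among 9 motor neuron genes 3 fell (median −0.50, and −0.29 without array 271). Chodl, a marker of fast motor neurons, was at 7.14, 7.28, 8.55 and 9.42 on clamped arrays, against 9.31, 9.18 and 9.44 on sham arrays, so array 274 lay within the sham range (−1.21 ± 0.37), and its call ended without array 271 (−0.89), where 2 of the 9 fell. Prph, a filament of motor and sensory neurons, fell by 0.60, but 3 of its 4 probe sets had the opposite sign. Sensory ganglion genes were lower beside these, with 5 of 7 at an unadjusted p under 0.05 and 0 called by limma. Their mean log2 level was 5.86 to 6.45 on clamped and 6.37 to 7.06 on sham arrays, and their part in the values of Prph and Scn9a was not tested. Of 8 excitatory neuron genes 1 rose, the neuropeptide gene Nts (0.83 ± 0.22, and 0.51 without array 271), which had 9.55 to 10.87 on clamped and 8.78 to 9.30 on sham arrays. Of 8 inhibitory neuron genes limma called 0 in either direction, and 1 was lower at an unadjusted p under 0.05.

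Ion channels and transmitter receptors, the molecules by which neurons and glia set their excitability, mostly did not pass the test, and those called were nearly all lower. Of 80 measured potassium channel genes 11 fell and 1 rose, with a median of −0.13 (−0.11 without array 271). Of all genes tested 7.01% were called lower and 5.52% higher. Kcnj12, an inward rectifier, was at 6.55, 6.60, 6.51 and 6.88 on clamped arrays, against 7.36, 7.18 and 7.39 on sham arrays (−0.68 ± 0.09, limma adjusted p = 0.000149). Kcnk12, of the K2P family, was at 7.59, 8.14, 8.12 and 7.77 on clamped arrays and at 8.59, 8.52 and 8.70 on sham arrays (−0.70 ± 0.11). Kcnd1, which carries A-type current, fell by 0.68 and Kcng4, a modifier subunit, fell by 0.88. The member that rose was Kcne4, an accessory subunit that inhibits Kv channels. It was at 8.66, 8.31, 8.34 and 8.16 on clamped arrays and at 7.35, 7.53 and 7.61 on sham arrays (0.87 ± 0.11), against a change of 0.07 in rostral cord, and the difference between regions was called (0.80 ± 0.15, limma adjusted p = 0.0155).

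Among 11 sodium channel genes 2 fell, Scn1a (−0.53), a channel of axon initial segments and inhibitory neurons, and Scn9a (−0.89, with 1 of 5 probe sets of opposite sign), best known from sensory and some motor neurons. Of 24 calcium channel genes 4 fell, among them Cacna1c (−0.68, and −0.44 without array 271), an L-type pore subunit, and Cacng2 (−0.52), the AMPA receptor partner stargazin. Of 22 glutamate receptor genes 4 fell (median −0.46, and −0.29 without array 271). These included Grin3b (−0.50), an NMDA receptor subunit of motor neurons, and Grid1 (−0.84, and −0.55 without array 271). Grm3, a metabotropic receptor of astrocytes, had a change of −1.07 whose call ended without array 271. Only Gabrb2 (−0.65, with 1 of 5 probe sets of opposite sign) was called among 21 GABA and glycine receptor genes in the fit of 21 arrays (median −0.15). No member of the sodium channel, calcium channel, glutamate receptor or GABA and glycine receptor lists rose in that fit.

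Of the lists for signals that pattern the developing cord, each had a minority of members called. Of all genes tested 7.01% were called lower and 5.52% higher. In the Wnt list 1 of 19 fell and 0 rose (median −0.15). In the Notch list, 3 of 15 measured fell. Heyl, a transcription factor induced by Notch with 1 of 3 probe sets of opposite sign, was at 6.49, 6.22, 6.75 and 6.51 on clamped arrays, against 7.30, 7.30 and 7.21 on sham arrays (−0.78 ± 0.14, limma adjusted p = 0.00207). The ligand gene Jag2 fell by 0.42. In the BMP and TGF-beta list 3 of 19 fell and 1 rose; Bmpr1b, a BMP receptor (−0.69), and Bmp6, a ligand (−0.61), had overlapping groups and were not called without array 271, in contrast to Bmp4. In the Hedgehog list 3 of 10 fell (median −0.30, and −0.37 without array 271). Ptch1, the receptor that is itself induced by the pathway, was at 9.62, 10.58, 10.58 and 11.23 on clamped arrays and at 11.38, 11.47 and 11.47 on sham arrays (−0.94 ± 0.24). Gli1, a target and effector of the pathway, was at 6.53, 6.39, 6.42 and 6.70 on clamped arrays and at 7.17, 6.88 and 7.06 on sham arrays (−0.53 ± 0.15), and the effector gene Gli3 fell by 0.55. For Ptch1, Gli1 and Gli3 the groups were separate. Of 32 semaphorin, plexin and neuropilin genes, which steer axons and vessels, 4 fell, with Sema6a at −0.60 (1 of 3 probe sets of opposite sign). Of 21 ephrin and Eph receptor genes 4 fell, among them the axon guidance receptors Epha4 (−0.76) and Epha7 (−0.82). Among 305 zinc finger genes of the Zfp family 32 fell and 7 rose, to be read beside the same shares of all genes. The member with the smallest p was Zfp36, which speeds the decay of inflammatory mRNAs (2.66 ± 0.35), and the fall with the smallest p was that of Zfp30 (−0.50).

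The 30 largest falls held other genes that belong to none of these lists. Dlgap2, a postsynaptic scaffold, was at 4.50, 6.22, 6.52 and 6.41 on clamped arrays, against 7.25, 7.24 and 7.62 on sham arrays (−1.46 ± 0.31). Fbxo32, the ubiquitin ligase atrogin-1, was at 6.85, 7.60, 7.37 and 8.30 on clamped arrays and at 8.89, 8.76 and 9.12 on sham arrays (−1.39 ± 0.21, limma adjusted p = 0.000335). Ddit4l, an inhibitor of mTOR signalling, was at 6.91, 7.56, 7.26 and 8.09 on clamped arrays and at 8.80, 8.79 and 8.58 on sham arrays (−1.27 ± 0.21). Each of the 30 had separate groups, as the rule required. Depdc7 (−1.64), Sox2ot (−1.56), a long noncoding RNA gene, Psd2 (−1.51, and −0.99 without array 271), Trim59 (−1.51) and Myorg (−1.47) were nearest to sham on array 274. Trim59 was at 9.33 on that array, against 7.12 to 7.71 on the other 3 clamped arrays and 9.38 to 9.46 in sham. Further members were Col8a2, a basement membrane collagen gene (−1.39), Rfx4, a transcription factor of cilia and neural tube patterning (−1.39, and −0.88 without array 271), Gab1, an adaptor of growth factor receptors (−1.38, and −0.92 without it), Chdh, which oxidises choline (−1.15), and Slc7a10, a carrier of serine and glycine (−1.16). Rfx4 and Slc26a7 (−1.42) each had another probe set of opposite sign. Of the 30, the fit of the 6 arrays without 271 alone called Gpr17, Dlgap2, Col8a2, Gab1, Ddit4l, Slc40a1 and Flrt1, which is 7. The fit of the 7 arrays alone called 1 of them, Slc40a1. The change of Flrt1 was −1.14, and −0.71 without array 271.

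**Figure D3:**
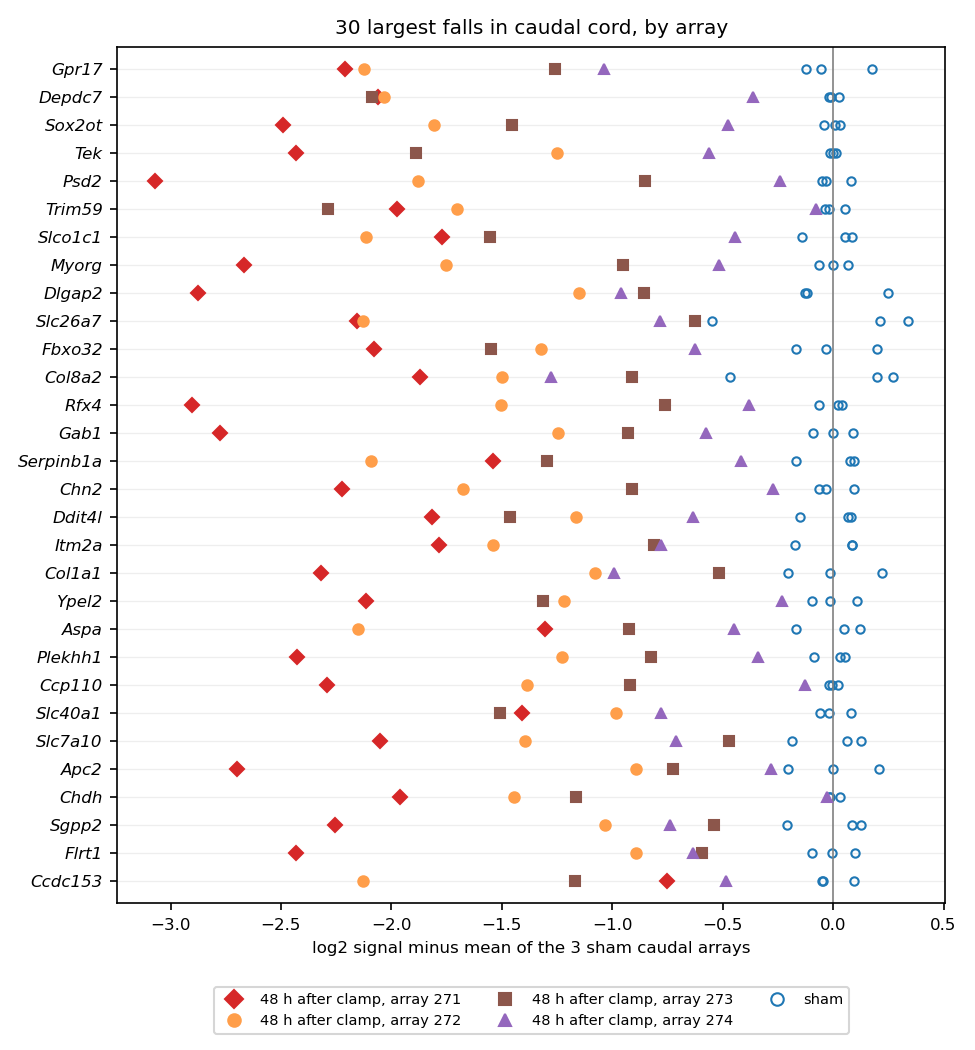
Log2 signal minus the mean of the 3 sham caudal arrays for the 30 largest falls, one gene per row in order of size. Filled markers are the 4 clamped arrays and open circles the 3 sham arrays; array 271 is the farthest left for 23 of them, array 274 is near the sham arrays for Trim59 and Chdh, and no clamped marker passes the lowest sham marker.

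Reactive astrocyte and macrophage genes were the cell type lists with most members higher. Of 14 reactive astrocyte genes 12 rose and 0 fell, with a median of 1.89 (1.76 without array 271), on arrays 271 to 274 a median of 2.08, 2.48, 1.78 and 0.64. Gfap, the filament protein of reactive astrocytes, was at 12.32, 13.05, 13.03 and 12.40 on clamped arrays, against 11.88, 12.07 and 11.85 on sham arrays (0.77 ± 0.16, limma adjusted p = 0.00579). Osmr, the oncostatin M receptor, was at 9.88, 11.21, 10.34 and 9.75 on clamped arrays and at 8.30, 8.02 and 8.57 on sham arrays (2.00 ± 0.41). Of 14 homeostatic astrocyte genes 1 rose, the transcription factor gene Sox9 (0.51), and 2 fell, the potassium channel gene Kcnj10 (−0.76, and −0.42 without array 271) and the growth factor receptor gene Fgfr3 (−0.80), whose call ended without that array.

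Of 15 monocyte and macrophage genes 9 rose (median 1.22, and 1.18 without array 271). Fcgr1, a high-affinity antibody receptor, was at 9.59, 9.69, 9.52 and 9.04 on clamped arrays, against 6.69, 6.80 and 6.53 on sham arrays (2.79 ± 0.27, limma adjusted p = 8.79e-06). Clec4d, a C-type lectin of myeloid cells, varied far more, with 10.28, 8.63, 6.31 and 5.73 on clamped arrays and 4.77, 4.73 and 5.06 on sham arrays (2.89 ± 0.66). Of 13 homeostatic microglia genes 3 rose and 1 fell, with a median of −0.06 (0.16 without array 271). Only 5 of the 13 had positive values, and the list ran from −0.95 to 1.91. Fcrls, a receptor-like gene of resident microglia, was at 10.19, 9.64, 10.10 and 9.79 on clamped arrays and at 7.90, 8.02 and 8.14 on sham arrays (1.91 ± 0.17), and its difference between regions was 2.01 ± 0.23 (limma adjusted p = 0.000238). Trem2, a lipid-sensing receptor of microglia, rose by 1.07, Olfml3 by 0.57, and Sall1, the transcription factor of microglial identity, fell by 0.62. Of 11 neutrophil genes only Mmp8, a granule collagenase, was called (1.71 ± 0.46, and 1.12 without array 271), with a list median of 0.08 (−0.14 without array 271). The neutrophil alarmin gene S100a9 was at 13.28, 11.58, 9.80 and 11.23 on clamped arrays and at 10.63, 9.09 and 11.19 on sham arrays, so the groups overlapped. The mean log2 level of the 11 neutrophil genes was 7.50 to 8.99 on clamped and 7.19 to 8.56 on sham arrays. Of 9 lymphocyte genes limma called 0, with 1 higher at an unadjusted p under 0.05.

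Genes of glucose use split. Of 18 glycolysis genes 4 rose and 2 fell (median −0.24, and −0.06 without array 271). Hk2, the inducible hexokinase, was at 8.56, 9.08, 8.56 and 8.39 on clamped arrays, against 7.48, 7.43 and 7.64 on sham arrays (1.12 ± 0.14, limma adjusted p = 7.94e-05), and rose by 0.62 in rostral cord. Ldha, which makes lactate, was at 12.64, 11.65, 11.44 and 11.40 on clamped arrays and at 10.99, 10.97 and 10.91 on sham arrays (0.82 ± 0.21, and 0.53 without array 271). Hk3, a hexokinase of myeloid cells (0.35), Slc16a3, the lactate exporter MCT4 (0.51), and Pfkl, a phosphofructokinase subunit (−0.79), were called with all arrays and not without array 271. Tpi1, a glycolytic isomerase, fell by 0.29. In the glycogen list 3 of 12 fell and 0 rose. Pygb, the brain form of glycogen phosphorylase, was at 10.41, 11.32, 11.53 and 11.73 on clamped arrays and at 12.01, 11.92 and 11.88 on sham arrays (−0.69 ± 0.20, and −0.41 without array 271). Gyg, which primes glycogen synthesis, fell by 0.47 (−0.26 without array 271), and Gys1, the synthase, had a change of −0.50 whose call ended without array 271.

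Among genes of pyruvate entry and the citric acid cycle, 2 kinases that inhibit pyruvate dehydrogenase changed in opposite directions. Pdk4 was at 9.46, 9.84, 9.59 and 8.20 on clamped arrays, against 7.71, 7.81 and 7.46 on sham arrays (1.61 ± 0.39), and rose by 1.84 in rostral cord. Pdk1, with 1 of 4 probe sets of opposite sign, was at 7.65, 8.41, 8.84 and 8.80 on clamped arrays and at 9.16, 9.20 and 9.39 on sham arrays (−0.82 ± 0.19, and −0.56 without array 271). Pcx, the pyruvate carboxylase of astrocytes, fell by 0.54, and the other 24 of the 27 citric acid cycle genes measured were not called. Subunits of the respiratory chain moved little. Of 34 complex I genes 2 fell, beside 7.01% of all genes tested, with a median of −0.03 (−0.13 without array 271). They were Ndufa10 (−0.34) and Ndufv1 (−0.48, and −0.27 without array 271). Of 17 ATP synthase genes limma called 0, with 2 lower at an unadjusted p under 0.05. Of 26 genes of complexes III and IV 1 rose. It was Cox6a2, the muscle form of a cytochrome oxidase subunit, at 8.91, 8.45, 7.77 and 8.23 on clamped arrays and at 7.51, 7.38 and 7.53 on sham arrays (0.87 ± 0.23). Ppargc1a, a coactivator of mitochondrial genes named after its values were seen, was at 8.09, 9.22, 9.33 and 8.91 on clamped arrays and at 10.00, 9.98 and 10.07 on sham arrays (−1.13 ± 0.19, and −0.86 without array 271).

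Cox6a2, Lpl, Cd36, Pdk4 and Plin4 are also genes of heart or other muscle or of fat, and heart muscle genes rose in these samples. Of 14 heart muscle genes 6 rose and 1 fell in caudal cord (median 1.12, and 0.72 without array 271), and their mean log2 level was 6.67 to 8.09 on clamped and 6.05 to 6.14 on sham arrays. In rostral cord, where 86 genes were called higher (0.473% of those tested) and 26 lower (0.143%), 12 of the 14 rose, with a median of 4.40. Myl2, a ventricular myosin light chain, was at 10.48, 9.09, 7.63 and 9.29 on clamped arrays, against 5.85, 5.45 and 6.28 on sham arrays (3.26 ± 0.51). Limma called 0 of 10 skeletal muscle and 0 of 6 adipocyte genes, with 0 and 1 higher at an unadjusted p under 0.05. The part of heart or other muscle RNA in the values of these 5 genes was not tested.

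Lipid handling genes moved in both directions, with 5 of 14 higher and 2 lower (median 0.24). Lpl, which frees fatty acids from lipoproteins, had the smallest p of the list, with 10.44, 10.21, 10.12 and 10.39 on clamped arrays against 8.0025, 8.04 and 8.15 on sham arrays (2.23 ± 0.20, limma adjusted p = 4.03e-06). It rose by 2.79 in rostral cord. Ch25h, which makes the immune oxysterol 25-hydroxycholesterol, was at 11.23, 11.18, 10.54 and 9.75 on clamped arrays and at 6.75, 6.40 and 6.98 on sham arrays (3.96 ± 0.51). Plin2, a lipid droplet coat protein, rose by 1.24, Plin4, another coat protein, by 2.85, and the fatty acid receptor gene Cd36 by 1.34, against 3.54 in rostral cord. Pltp, which transfers phospholipids between lipoproteins, was at 9.82, 9.85, 10.23 and 10.63 on clamped arrays and at 11.21, 11.16 and 11.40 on sham arrays (−1.12 ± 0.18), and fell by 0.83 in rostral cord. Apoe, the main lipid carrier of the cord, fell by 0.38.

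Of 18 genes of fatty acid and sphingolipid synthesis 4 fell and 0 rose (median −0.39; without array 271, −0.22 with 7 lower). Srebf1, the transcription factor of lipid synthesis, was at 8.64, 9.01, 9.77 and 9.98 on clamped arrays and at 10.18, 10.07 and 10.17 on sham arrays (−0.79 ± 0.21). The desaturase gene Fads2 fell by 0.999 (−0.63 without array 271) and the elongase gene Elovl7 fell by 0.81 (−0.49 without it). Of 12 cholesterol synthesis genes limma called 0, with 1 higher and 2 lower at an unadjusted p under 0.05, while 5 of them fell in rostral cord. Of 18 fatty acid oxidation genes the nuclear receptor gene Ppara alone was called (−0.40, with 1 of 3 probe sets of opposite sign), and its call ended without array 271.

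Iron handling genes rose in 5 and fell in 1 of 16 measured. Slc40a1, ferroportin, the exporter of iron from cells, was at 6.78, 7.21, 6.68 and 7.41 on clamped arrays, against 8.17, 8.27 and 8.13 on sham arrays (−1.17 ± 0.18, limma adjusted p = 0.000359, and −1.09 without array 271). It was the only list member called lower in the fit of the 7 arrays alone. Slc39a14, an importer of iron and zinc, was at 10.21, 11.03, 10.57 and 9.53 on clamped arrays and at 8.86, 8.75 and 8.82 on sham arrays (1.52 ± 0.29). Slc11a1, which moves iron out of phagosomes, was at 9.52, 8.84, 8.45 and 7.44 on clamped arrays and at 7.22, 7.03 and 6.87 on sham arrays (1.53 ± 0.29). Hmox1, which frees iron from heme, rose by 2.72, Lcn2, which binds iron-carrying siderophores, by 3.13, and the ferroxidase gene Cp by 1.54, with 1 of 8 probe sets of opposite sign.

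Genes of the phagocyte oxidase and of itaconate rose in 7 of 11 (median 1.19, and 1.15 without array 271). Acod1, which makes itaconate, was at 10.54, 10.03, 9.11 and 7.21 on clamped arrays, against 4.95, 5.14 and 5.33 on sham arrays (4.08 ± 0.50). Cybb, the catalytic subunit of the oxidase, was at 9.13, 9.69, 8.81 and 8.09 on clamped arrays and at 6.48, 6.13 and 6.68 on sham arrays (2.50 ± 0.32). Its partners Ncf1 (1.39), Ncf4 (1.91), Rac2 (1.19) and Cyba (1.82) rose too, as did the mitochondrial superoxide dismutase gene Sod2 (0.48). For Acod1, Cybb and Rac2 the difference between regions was called.

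Nucleotide metabolism genes rose in 6 and fell in 0 of 13 (median 0.57, and 0.87 without array 271). Cmpk2, an interferon-induced mitochondrial kinase, was at 10.34, 11.15, 10.16 and 9.97 on clamped arrays, against 8.43, 8.49 and 8.36 on sham arrays (1.98 ± 0.22, limma adjusted p = 3.16e-05). Pnp, which splits purine nucleosides, was at 11.21, 12.02, 11.18 and 10.82 on clamped arrays and at 9.88, 9.82 and 9.91 on sham arrays (1.44 ± 0.22). Their differences between regions were called as well (1.60 ± 0.30 and 1.36 ± 0.30). Ada, which deaminates adenosine, rose by 2.19, and Upp1, which splits uridine, by 1.70. In the arginine and polyamine list 4 of 13 rose. Gch1, the first enzyme of tetrahydrobiopterin synthesis, was at 10.85, 9.42, 8.50 and 6.9975 on clamped arrays and at 6.31, 6.19 and 6.28 on sham arrays (2.68 ± 0.54), and the ornithine decarboxylase gene Odc1 rose by 0.71. Of 46 cytoplasmic ribosomal protein genes 4 rose (median 0.28, and 0.15 without array 271), and of 76 mitochondrial ribosomal protein genes 2 rose and 3 fell. Of all genes tested 5.52% were called higher and 7.01% lower.

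Genes that low oxygen induces did not move as 1 group, with 3 of 14 higher and 2 lower (median −0.14, and −0.02 without array 271). Adm, a vessel-dilating peptide, was at 8.11, 9.21, 8.63 and 8.22 on clamped arrays, against 7.55, 7.61 and 7.86 on sham arrays (0.87 ± 0.22), while Hk2 and Ldha rose and Pdk1 fell, as given above. Vegfa, the vascular growth factor, was not called (−0.41 ± 0.15, limma adjusted p = 0.0787). Among 16 glutathione and thioredoxin genes 2 rose, and Srxn1, which repairs peroxiredoxins, had a change of 1.36 with array 274 at 9.60, inside the sham range of 9.39 to 10.02. Its call ended without array 271 (1.04), where 1 of the 16 rose. Of 14 amino acid transporter genes the glutamine carriers Slc38a3 (−0.75, with 1 of 2 probe sets of opposite sign) and Slc38a1 (−0.53, with overlapping groups) fell and Slc15a3 rose.

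**Figure D4:**
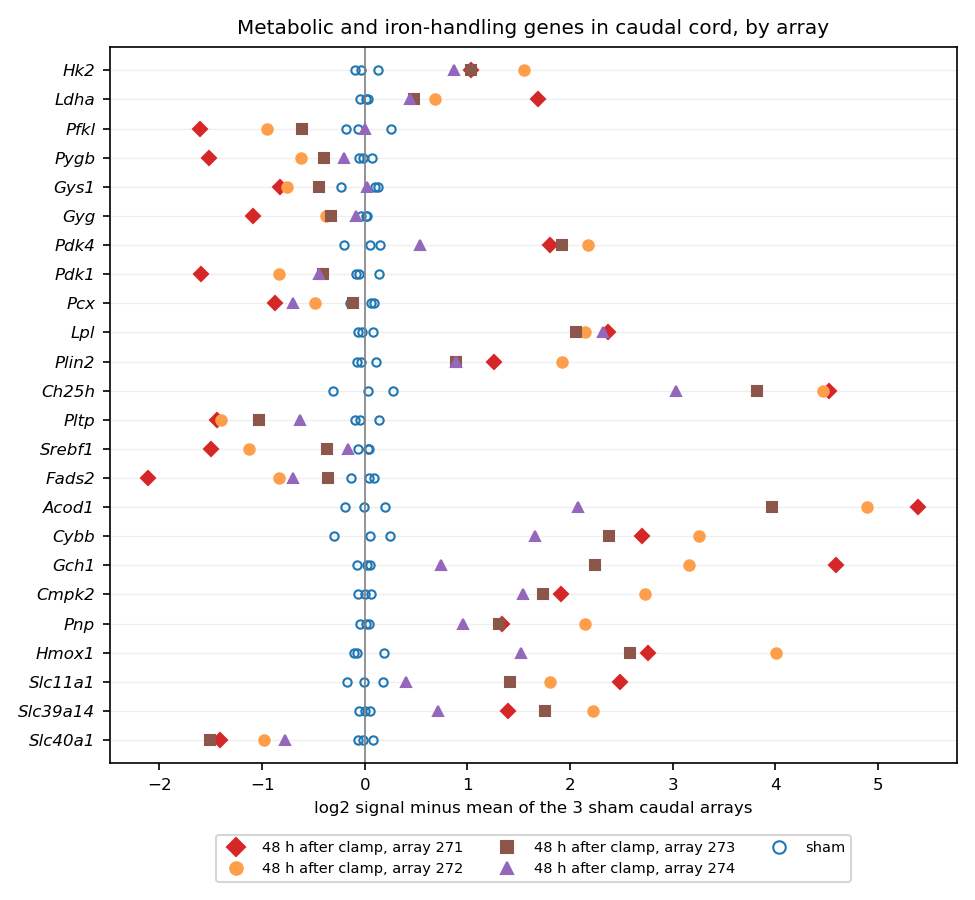
Log2 signal minus the mean of the 3 sham caudal arrays for 24 metabolic and iron-handling genes, one gene per row. Filled markers are the 4 clamped arrays and open circles the 3 sham arrays; Lpl, Hk2 and Cmpk2 have all 4 clamped arrays clear of sham on the right, Pltp and Slc40a1 on the left, and for Pfkl, Gys1 and Pcx a clamped marker overlaps the sham markers.

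The 25 largest rises outside the chemokine ligands, taken only from called genes with separate groups, were led by Il6, the inflammatory cytokine. Il6 was at 12.49, 11.73, 10.67 and 9.45 on clamped arrays, against 3.89, 4.03 and 3.93 on sham arrays. Tslp, a cytokine of barrier tissues that acts on dendritic cells, was at 9.23, 8.15, 7.78 and 5.84 on clamped arrays and at 4.14, 3.91 and 3.99 on sham arrays (3.74 ± 0.44, limma adjusted p = 5.11e-05). Gpr84, a fatty acid receptor of myeloid cells, was at 10.15, 10.37, 10.26 and 8.35 on clamped arrays and at 6.00, 5.70 and 5.88 on sham arrays (3.92 ± 0.48). Array 274 was the lowest of the clamped arrays for each of these 3 genes. Ptgs2, the inducible cyclooxygenase, rose by 4.34, Il1b by 4.27, its natural antagonist Il1rn by 3.66, and Slc15a3, a lysosomal peptide carrier, by 3.65. The acute-phase genes Saa3 (4.31 ± 0.99) and Saa1 (3.88 ± 1.003) had wide errors: Saa1 was at 11.29, 9.43, 8.10 and 5.41 on clamped arrays and at 4.88, 4.64 and 4.51 on sham arrays. Of the 25, the fit of the 7 arrays alone called 19.

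**Figure D5:**
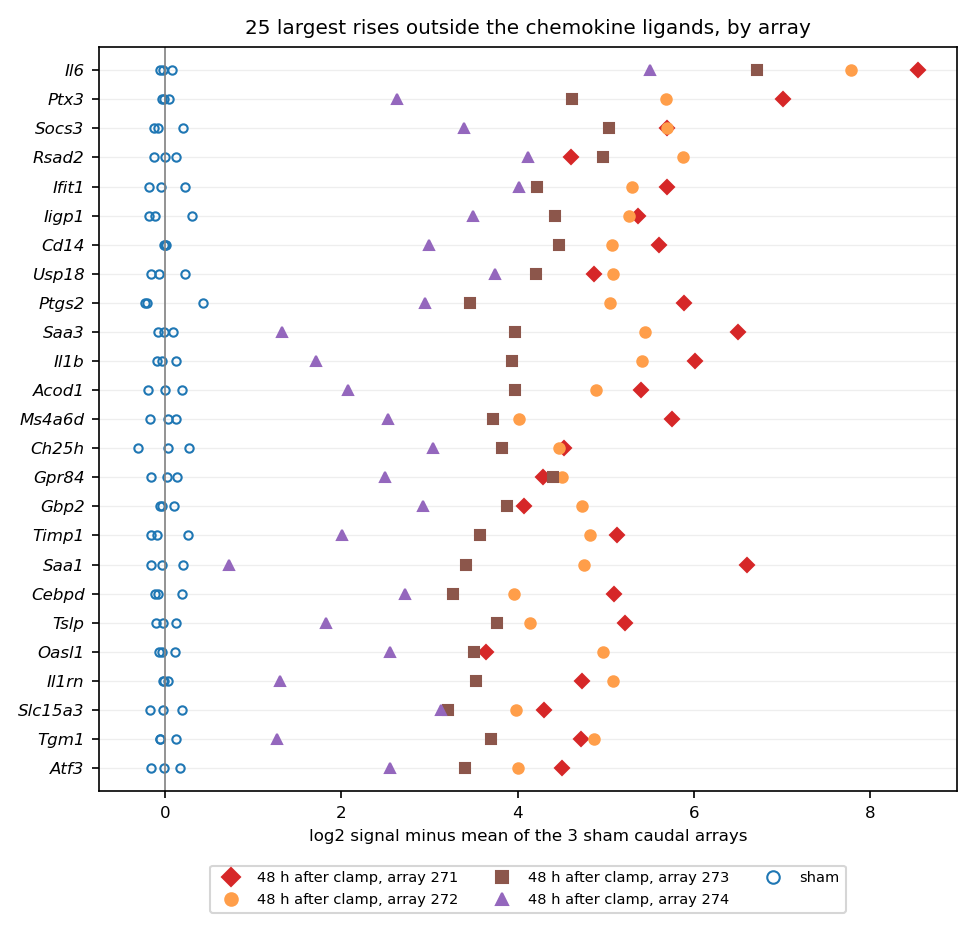
Log2 signal minus the mean of the 3 sham caudal arrays for the 25 largest rises that are not chemokine ligands, one gene per row in order of size. Filled markers are the 4 clamped arrays and open circles the 3 sham arrays. All clamped markers lie right of the sham markers, as the rule for choosing the genes required. Array 274 is the leftmost clamped marker in every row.

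Interferon-induced GTPases, which attack the membranes around intracellular microbes, rose in 10 of 12 measured and fell in 0 (median 2.84, and 2.97 without array 271). Their promoters are shown for 4 members because a motif bound by interferon regulatory factors, GAAANNGAA on either strand, was found in the window of each. The windows run from 250 bases before to 50 bases after the start of the gene, from RefSeq on build GRCm38.p6, and capitals mark the motif.
Gbp2, chr3:142620413-142620712, plus strand: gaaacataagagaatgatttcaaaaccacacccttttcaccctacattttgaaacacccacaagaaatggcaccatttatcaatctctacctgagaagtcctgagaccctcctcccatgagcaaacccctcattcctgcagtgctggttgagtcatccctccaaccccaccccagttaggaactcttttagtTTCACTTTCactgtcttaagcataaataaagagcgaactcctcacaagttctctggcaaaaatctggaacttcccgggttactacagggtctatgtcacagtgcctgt
Gbp7, chr3:142530086-142530385, plus strand: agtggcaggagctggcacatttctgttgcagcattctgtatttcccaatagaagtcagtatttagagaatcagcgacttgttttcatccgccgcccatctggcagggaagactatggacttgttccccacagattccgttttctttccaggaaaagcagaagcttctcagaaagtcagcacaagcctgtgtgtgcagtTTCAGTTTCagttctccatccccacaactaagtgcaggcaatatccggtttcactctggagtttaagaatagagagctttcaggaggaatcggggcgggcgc
Irgm1, chr11:48871371-48871670, minus strand: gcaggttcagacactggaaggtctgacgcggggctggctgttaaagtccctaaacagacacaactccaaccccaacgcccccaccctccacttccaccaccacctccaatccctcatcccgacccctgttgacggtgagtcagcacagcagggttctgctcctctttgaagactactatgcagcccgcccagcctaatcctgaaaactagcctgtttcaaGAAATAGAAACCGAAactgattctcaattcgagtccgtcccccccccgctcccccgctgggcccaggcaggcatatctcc
Igtp, chr11:58199306-58199605, plus strand: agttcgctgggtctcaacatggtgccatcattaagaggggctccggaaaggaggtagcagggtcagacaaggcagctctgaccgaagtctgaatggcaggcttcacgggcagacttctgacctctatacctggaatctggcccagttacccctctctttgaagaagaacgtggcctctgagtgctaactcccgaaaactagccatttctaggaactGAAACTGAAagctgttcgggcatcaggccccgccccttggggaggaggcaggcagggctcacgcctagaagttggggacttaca

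The motif began 58, 52 and 34 bases before the start in Gbp2, Gbp7 and Igtp, and in Irgm1 there were 2 overlapping matches. Of the 12 GTPases 7 had a window in the table, and 7 of these held the motif. It was in 8.7% of the 14452 tested genes with a window, in 16.9% of 771 genes called higher and in 7% of 1015 genes called lower. Of the other 2 motifs searched on both strands, TTCNNNGAA of STAT factors was in 12.5% of the genes called higher and 7.78% of those called lower, against 8.57% of tested genes, and the E-box CACGTG was in 10.6% and 10.9%, against 10.2%. A match describes letters and is no evidence of binding. Gbp2 was at 11.83, 12.50, 11.64 and 10.69 on clamped arrays, against 7.86, 7.70 and 7.72 on sham arrays (3.90 ± 0.57, limma adjusted p = 0.000253). Igtp was at 11.84, 12.23, 11.21 and 10.79 on clamped arrays and at 8.53, 8.44 and 8.13 on sham arrays (3.15 ± 0.43). Irgm1 rose by 3.33 and Gbp7 by 2.82. For Gbp2, Igtp, Irgm1 and Gbp7 array 272 was the highest and array 274 the lowest clamped array. The rise in rostral cord was 0.78 to 1.17 for these 4 genes and was not called, and neither was the difference between regions (limma adjusted p from 0.104 to 0.165).

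Transcription factor genes of the inflammatory and immediate early response were called higher in part, and none was called lower. Of 12 IRF and C/EBP genes 7 rose (median 1.13, and 1.04 without array 271). Cebpb, which drives acute-phase genes, was at 10.66, 10.91, 10.86 and 10.66 on clamped arrays, against 8.39, 8.27 and 8.72 on sham arrays (2.31 ± 0.23, limma adjusted p = 9.32e-06), and also rose in rostral cord (1.27). Irf7, the amplifier of type I interferon, was at 10.11, 10.40, 9.74 and 8.61 on clamped arrays and at 6.62, 6.29 and 6.10 on sham arrays (3.38 ± 0.46). Of 36 AP-1, KLF and EGR genes 16 rose and 0 fell. Egr3 was at 9.20, 9.06, 9.06 and 8.18 on clamped arrays and at 6.46, 6.57 and 7.01 on sham arrays (2.19 ± 0.24), with a value of −0.14 in rostral cord and a difference between regions of 2.33 ± 0.33 (limma adjusted p = 0.00139). Of 14 STAT and SOCS genes 5 rose, and they were feedback inhibitors: Socs3 (4.96), Socs1 (1.22), Socs2 (1.09), Cish (0.44) and Socs6 (0.30). Array 274 of Cish met the sham range, and its call ended without array 271 (0.31). In that fit 6 of the 14 rose, some of them not named here.

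Genes of caspases, gasdermins and necroptosis rose in 8 of 16 and fell in 0 (median 0.58). Without array 271, 8 rose and 1 fell, with a median of 0.35. Casp4, the caspase 11 that senses bacterial lipid and cleaves gasdermin D, was at 8.45, 8.88, 7.86 and 6.97 on clamped arrays, against 5.41, 5.32 and 5.34 on sham arrays (2.69 ± 0.38, limma adjusted p = 0.000171). Casp1, the inflammasome caspase, was at 8.12, 8.01, 7.19 and 7.09 on clamped arrays and at 6.18, 6.04 and 6.19 on sham arrays (1.47 ± 0.21), and its difference between regions was called (1.26 ± 0.28, limma adjusted p = 0.0479). Mlkl, which breaches the membrane in necroptosis, was at 6.16, 6.38, 5.44 and 4.80 on clamped arrays and at 4.06, 4.23 and 3.83 on sham arrays (1.65 ± 0.26). Zbp1, a nucleic acid sensor upstream of it, rose by 1.37. Of 19 BCL2 family genes 4 rose and 1 fell. The risers were the pro-death Pmaip1 (0.98) and Bbc3 (0.34) and the protective Mcl1 (0.72) and Bcl2l1 (0.44), and Bcl2l13, with 1 of 2 probe sets of opposite sign, fell by 0.69 (−0.40 without array 271). The call of Bbc3 ended without array 271 (0.26), where 3 of the 19 rose.

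The test of the difference between regions asked which caudal changes were unlike those above T6. It called 102 genes (0.561% of those tested), 74 with a larger value in caudal and 28 with a larger value in rostral cord. The largest positive differences were in Il6 (5.77), Cxcl2 (4.99), Il1b (4.13), Acod1 (3.81), Tslp (3.74) and Ccl7 (3.65). Tslp had a change of −0.0075 in rostral cord and Il1b one of 0.14. The largest negative differences were in heart muscle genes, Actc1 (−4.13), Myh6 (−3.76), Pln (−3.74) and Ckmt2 (−3.67), all called higher in rostral cord. In caudal cord Pln was not called, and the call of Ckmt2 (1.11) ended without array 271 (0.74) and without any 1 of the 3 sham arrays. Actc1 was at 7.78, 7.89, 6.91 and 7.49 on clamped caudal arrays, against 5.30, 5.30 and 5.38 on sham caudal arrays, and its change in rostral cord was 6.32. Of the 30 largest falls, the one with the smallest p in this test was Fbxo32 (limma adjusted p = 0.238), so none was called. The count of 102 became 213 without caudal array 271 and 822 without caudal array 274, and 42, 49 and 57 without sham caudal arrays 278, 279 and 280. It was 59 without clamped rostral array 273, and 64, 65 and 65 without sham rostral arrays 278, 279 and 280.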

How the data were processed

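Expression was measured on Affymetrix arrays with 45101 probe sets. The values deposited by the authors are log2 signals. The submitters' processing notes name RMA, and its version is not given in the sources used here. RMA corrects background, equalises the arrays' distributions and summarises the probes of a set. Symbols came from the platform's probe table: 34945 probe sets had 1 symbol, 932 several and 9160 none listed, and 64 were controls. For each of 18193 genes the probe set with the highest mean was used.

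A limma (3.58.1, R 4.3.3) model with 6 groups was fitted to 21 arrays, so all groups shared 1 estimate of the spread, followed by eBayes. One rostral array, 276, whose time the labels leave unclear, was not used. Adjusted p-values are Benjamini-Hochberg over all genes. Scripts were tested on simulated data. The 64 gene lists and the arrays were chosen with earlier results of these data known. Named genes were the 25 largest rises outside chemokine ligands and the 30 largest falls, both only among called genes with separate groups. List members by smallest p and the 10 largest differences between regions were named too. Hoxc10, Acvr1c, Gfap, Ppargc1a, Apoe and Sod2 were added after their values were seen. The alternatives tried were other probe set choices, normalizations, filters, array weights, replicate blocks and sets of arrays.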

Additional observations from a re-analysis of the deposited data

Results flagged for a closer look

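Of 175 named genes, 13 had 1 clamped caudal array far from the other 3. Chance alone gives such a gap in about 1 in 20 groups. Array 271 was the distant one for 10 genes. It was low for Bmp4 (6.54), Nat8l (9.74), Jag2 (7.50), Epha4 (6.71), Dlgap2 (4.50), Flrt1 (6.61), Kcnj10 (10.37) and Apoe (13.03), and high for Nts (10.87) and Cyba (12.04). Array 274 was low for Gpr84 (8.36) and Egr3 (8.18), and it was high, nearer to sham, for Depdc7 (6.82).

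For 24 of the named genes the 48 h change differed between caudal and rostral cord in the limma test of that difference. It was larger in caudal cord for Il6 (5.77), Cxcl2 (4.99), Il1b (4.13), Acod1 (3.81), Tslp (3.74), Ccl7 (3.65), Gpr84 (3.11), Egr3 (2.33), Cybb (2.26), Fcgr1 (2.10), Fcrls (2.01), Cmpk2 (1.60), Pnp (1.36), Casp1 (1.26), Rac2 (1.18), Olfml3 (0.82) and Kcne4 (0.80). It was larger in rostral cord for Actc1 (−4.13), Myh6 (−3.76), Pln (−3.74), Ckmt2 (−3.67), Myl2 (−3.47), Cox6a2 (−2.49) and Cd36 (−2.20). Several of these genes were named because of this difference, so their number is no measure of how common it is.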

How the results depend on the processing

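The count of 2279 called genes became 3503 with every probe set as a feature, 1515 with brighter genes alone, 6261 with array weights (0.0265 to 2.93), 142 with the compared groups alone, 345 in that fit without array 271 (an alternative chosen after seeing the data), 4658 without caudal arrays 271, 274 and 280, and 543 at 2-fold or more. Leaving out 1 array gave 801 to 5734, and without both arrays numbered 283 it was 1637. The count of 102 region differences became 19 with brighter genes, 1367 with array weights, 887 without the 3 caudal arrays, 168 with array 276 as rostral 48 h, and 42 to 822 on leaving out 1 array. The cause of these moves was not tested, except that fewer genes or arrays entered some fits.

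Of 170 called genes named in the text, 29 were called with the compared groups alone and 57 in that fit without array 271. At least 143 were called when any 1 clamped array was left out, and 98 to 113 when a sham array was. Repeating the quantile normalization kept 160, centring 167 and the mean of probe sets 153. No named called gene changed sign in any of these fits. The sign could not change where separate groups lost an array, or where a fit kept the same group means.

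Same-numbered caudal and rostral arrays correlated in their deviations from the group means by 0.0863 to 0.534. For 5 of the 7 numbers this was above the correlation with every other number, which hints at pairing in the data, but the labels do not state it and number 280 was under the 0.1 asked of every pair, so the fit without the block was kept. With the number as a replicate block the counts were 2380 called genes and 189 region differences, and of the named genes only Ckmt2 was no longer called.

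Signals near the array background limit small changes of dim genes, and 4 arrays against 3, with unequal spread, limit the precision. The fit of the compared groups alone called 2 falls and 140 rises. At least a 2-fold change was found for 75 of the 1275 falls and 468 of the 1004 rises. The cause of the smaller number of falls called in that fit was not tested.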
